A study of Mus musculus with 2 samples.

Results

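Among immune cells sorted from mouse melanomas, 1060 of 22699 kept cell barcodes were monocytes and macrophages with a strong interferon response. Each was chosen on raw UMI counts, a UMI being a tagged mRNA molecule. A barcode entered with at least 10 UMIs summed over Ifit2, Ifit3, Rsad2 and Cmpk2, at least 1 UMI of Csf1r, the receptor that marks monocytes and macrophages, and no UMI of Cd3d, Cd3e, Cd3g or Ncr1, which mark T and NK cells. It also had fewer than 3 UMIs of the hypoxia genes Egln3, Bnip3 and Ero1l, fewer than 3 of Lpl, Ccl24 and Mmp12, fewer than 2 of Folr2, Cbr2 and Ccl8, and fewer than 3 of the dendritic cell genes Xcr1, Clec9a, Ccr7 and Siglech. These barcodes, 328 in the control library and 732 in the IL4 library, are called interferon-high cells here. Their high Ifit2, Ifit3, Rsad2 and Cmpk2 follow from the choice.

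Type I interferons, among them interferon beta, bind a receptor made of Ifnar1 and Ifnar2 and act through a complex that holds Stat2 and Irf9 on genes that carry an interferon-stimulated response element. Interferon gamma, made by T and NK cells, acts on gamma-activated sites and drives guanylate-binding proteins, Cxcl9 and class II presentation. In tumours, macrophages with an interferon programme are known as sources of Cxcl9 and Cxcl10, which draw T cells that carry the receptor Cxcr3.

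The cells were CD45-positive leukocytes from subcutaneous tumours of B16F10, a transplantable mouse melanoma line, in mice of genotype WT. The control mice had received untreated bone-marrow-derived macrophages (BMDMs), and the IL4 mice had received BMDMs treated with IL-4, the cytokine of alternative macrophage activation, per the sample characteristics. The protocol field names the IL-4-treated cells for both libraries, so the labels disagree. Both groups share the transfer of BMDMs and the tumour line, and the labels name no mark that tells transferred from host macrophages. Each group is 1 library. The sources used here do not give the number of mice, their age or sex, or the time of sampling. There was no replicate check and no test was run. The comparisons are of these libraries, and all intervals are 95% intervals that cover counting error only.

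Promoters of genes that were high in these cells are shown first, since their letters hold the elements through which interferon factors are known to act. Sequences came from RefSeq (GRCm38.p6), within 250 bases before the gene start. An interferon-stimulated response element was searched as GAAA, any 2 bases and GAAA again, on both strands (TTTC, any 2 bases, TTTC). It lay in 2.98% of 32851 such windows. Each stretch below has 100 bases, 5′ to 3′ on the gene's strand, with the match in capitals. Ifit3 and Rsad2 belong to the rule, and Isg15 and Cxcl10 stand for effectors and chemokines outside it. In Ifnb1, which encodes interferon beta, the capitals mark a kappaB match (GGGA, any 2 bases and TTCC, on both strands), which 1.21% of windows held. In GRCm38 all 5 stretches lie before the annotated gene: Ifit3 spans chr19:34583531-34588731, beside Ifit2 at chr19:34550694-34576419, and Rsad2 spans chr12:26442746-26456452, beside Cmpk2 at chr12:26469204-26479837. Isg15 spans chr4:156199424-156200818, Cxcl10 chr5:92346638-92348889, with Cxcl9 next to it at chr5:92321347-92328079, and Ifnb1 chr4:88522025-88522774.
Ifit3, chr19:34583362-34583461, plus strand: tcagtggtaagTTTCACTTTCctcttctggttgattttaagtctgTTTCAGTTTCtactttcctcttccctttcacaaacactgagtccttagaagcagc
Rsad2, chr12:26456518-26456617, minus strand: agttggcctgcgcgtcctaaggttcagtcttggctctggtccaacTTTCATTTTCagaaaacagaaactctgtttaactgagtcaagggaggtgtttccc
Isg15, chr4:156200830-156200929, minus strand: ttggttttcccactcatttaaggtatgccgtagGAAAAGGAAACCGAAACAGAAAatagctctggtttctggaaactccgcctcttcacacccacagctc
Cxcl10, chr5:92349040-92349139, minus strand: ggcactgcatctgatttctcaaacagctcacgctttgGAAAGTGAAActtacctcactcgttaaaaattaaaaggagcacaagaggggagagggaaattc
Ifnb1, chr4:88522856-88522955, minus strand: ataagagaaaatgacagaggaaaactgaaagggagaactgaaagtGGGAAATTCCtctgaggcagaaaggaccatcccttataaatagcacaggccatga

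The Isg15 stretch held 3 overlapping matches, the Ifit3 stretch 2, and the Rsad2 and Cxcl10 stretches 1 each. Of the 20 genes with the highest ratios over interferon-low cells, 16 had a RefSeq window. Ccl5, Gbp6, Iigp1 and Usp18 did not. A response element lay in 8 of the 16 (Gbp5, Ifi206, Ifi208, Ifit1, Ifit1bl1, Ifit3b, Isg15 and Tgtp2), a gamma-activated site (TTCNNNGAA, in 7.02% of all windows) in 3 (Gbp5, Tgtp2 and Trim30c) and a kappaB match in 2 (Gbp5 and Ifnb1). The windows of Cxcl9, Herc6, Ifih1, Oasl1, Plagl1 and AW011738 held none of the 3. Of the other rule genes, Ifit2 had windows with a gamma-activated site and a kappaB match, and Cmpk2 had a window with none of the 3. A match describes letters and does not show binding.

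Both libraries were deep. The control library held 95499107 UMIs in 8994 barcodes and the IL4 library 133151428 UMIs in 13873, of which 8937 and 13762 were kept. Interferon-high cells had a median of 10541.5 UMIs and 2989 genes in control and of 9448 UMIs and 2809 genes in IL4 mice, above the 9207 and 8256.5 UMIs of all kept barcodes. A rule on raw UMIs takes deeper barcodes more easily. No doublet caller was used, and 5 and 11 interferon-high cells exceeded 3 times the median UMI number of their library. The libraries shared 23 barcode sequences, none of which was interferon-high in both.

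The labels say nothing on sex, but cells differed in sex-linked transcripts. Xist is the RNA of the inactive X chromosome of female cells. Of interferon-high cells with UMIs of Xist or of Y-linked genes but not of both (Xist-only and Y-only cells), 128 of 272 (47.1%) carried Y-linked UMIs in the control library against 68 of 622 (10.9%) in the IL4 library. In interferon-low cells these shares were 30.2% and 10.6%. Any UMI of these genes was enough, and the part of RNA from outside the cell was not tested. Of 328 control and 732 IL4 interferon-high cells, those outside the 272 and 622 had both kinds of UMIs or none. No sex is given for the mice or the BMDM donors, so host sex and cell origin cannot be told apart. Where the text speaks of the sexes, Xist-only and Y-only cells are meant. The IL4 library and a lower share of Y-bearing cells cannot be told apart in pooled values, so values within Xist-only and Y-only cells are given for the gene lists and genes that the comparison of the libraries turns on.

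The label of monocytes and macrophages was checked against markers. In interferon-high cells, 6 of 6 monocyte markers (among them Ly6c2, Ccr2 and Plac8) and 6 of 6 macrophage markers (C1qa, C1qb, C1qc, Apoe, Mrc1 and Adgre1) were detected, summing to 4146 and 3467 counts per 1000000 UMIs (CPM) for the control and to 4083 and 3874 CPM for IL4. Barcodes with at least 3 UMIs of Cd3 genes or Ncr1 and none of Csf1r (305 and 573) are called T and NK barcodes. Their macrophage sums were 588 and 589.8 CPM and their monocyte sums 1244 and 1424 CPM. Every marker of both lists was detected in them too, so detection alone did not set the cell types apart. Plac8 made up most of the monocyte sums. It was at 3026 and 2962 CPM in interferon-high cells and at 877 and 951 CPM in T and NK barcodes. In interferon-high cells Cd3d, Cd3e, Cd3g and Ncr1 were at 0 by the rule. The T cell markers other than Il7r summed to 6.92 and 9.09 CPM, against 2349 and 2154 CPM in T and NK barcodes. Il7r itself was at 30.3 and 41.7 CPM in interferon-high and 34.8 and 50.9 CPM in interferon-low cells. NK markers other than Klrk1 summed to 10.4 CPM (control) and 42.5 CPM (IL4), against 2283 and 2901 CPM. Klrk1 was at 68.4 and 54.1 CPM in interferon-high and 39.1 and 36.8 CPM in interferon-low cells. Neutrophil markers summed to 167 and 120.2 CPM, B cell markers to 9.32 and 4.28 CPM, and melanoma markers other than Mitf to 8.25 and 13.4 CPM. Mitf was at 157 and 152 CPM, and at 149 and 142 CPM in interferon-low cells. The plasmacytoid dendritic cell markers other than Bst2 came to 204 and 224 CPM, nearly all of it from Tcf4. Bst2 was at 500 and 584 CPM. Markers of type 1 conventional dendritic cells summed to 284 and 255 CPM, against 160 and 188 CPM in interferon-low cells. Without Irf8 these sums were 25.6 and 17.5 CPM against 6.68 and 10.7 CPM. Mature dendritic cell markers summed to 28.2 and 31.8 CPM, against 23.8 and 36.1 CPM. Both lists hold genes that the gates limit. The markers of type 2 conventional dendritic cells, led by Clec10a and Cd209a, which the gates do not use, summed to 248 and 186 CPM, against 266 and 174 CPM in interferon-low cells and 109.9 and 131 CPM in T and NK barcodes. The part of dendritic cells in the results was not tested.

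Interferon-high cells made up 3.67% (3.29 to 4.08) of kept control barcodes and 5.32% (4.95 to 5.71) of kept IL4 barcodes. The difference of 1.65 percentage points (1.10 to 2.18) exceeded counting error. Among Xist-only barcodes the shares were 3.35% and 5.51%, a difference of 2.16 points (1.43 to 2.84). Among Y-only barcodes they were 5.13% and 5.54%, and the interval of the difference, 0.416 points (-1.06 to 2.05), took in 0. Of barcodes that passed every other gate, 328 of 2379 (13.8%) in the control and 732 of 4152 (17.6%) in the IL4 library reached the interferon sum. With a sum of at least 20 in place of 10 the difference in share of kept barcodes was 0.396 points (-0.00776 to 0.786).

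A high interferon sum was not confined to these cells. It was found in 1243 kept control barcodes (13.9%) and 2519 IL4 barcodes (18.3%), of which interferon-high cells were 26.4% and 29.1%. Of the barcodes with a high sum, 32.4% and 33.3% had no Csf1r UMI, 17.7% and 21.3% had Cd3 or Ncr1 UMIs, 17.9% and 18.5% had the dendritic genes, and 25.1% and 18.0% had the hypoxia genes.

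**Figure D1:**
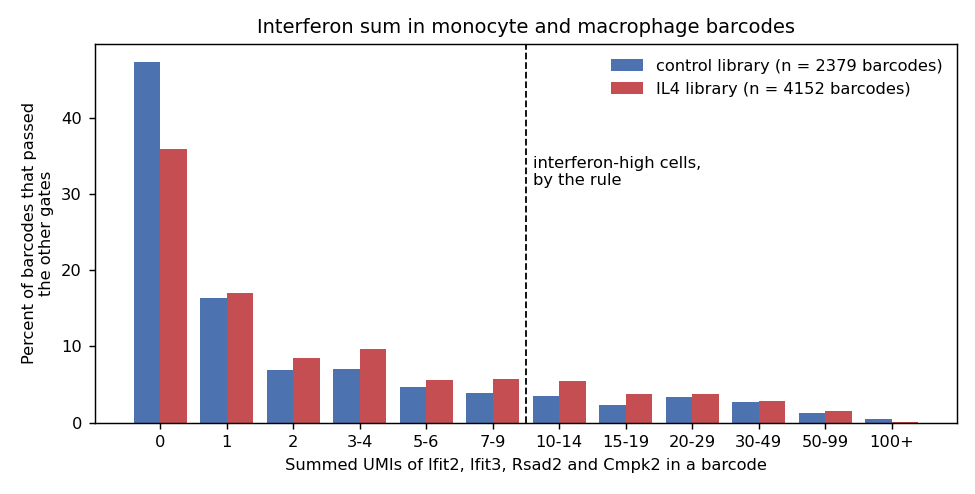
Summed UMIs of Ifit2, Ifit3, Rsad2 and Cmpk2 per barcode (x axis, in bins) and the percent of barcodes that passed the other gates (y axis), for the control (blue, 2379 barcodes) and IL4 (red, 4152 barcodes) libraries; the dashed line is the limit of the rule. A sum of 0 was the most frequent value in both, with 47.3% of control and 35.8% of IL4 barcodes, and the tail ran through the limit without a gap.

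The interferon sum had a median of 21 UMIs in control and 19 in IL4 interferon-high cells, and highest values of 218 and 175. Per 10000 UMIs of the cell the medians were 22.3 and 21.95. The limit fell within a continuous range. Just outside it, 23 control and 68 IL4 barcodes had a sum of 9, and just inside it 21 and 50 had a sum of 10. Rsad2, the antiviral enzyme viperin, was at 1967.5 CPM (1923 to 2013) in control cells and 1751 CPM (1721 to 1781) in IL4 cells, and 99.1% and 99.3% of interferon-high cells had at least 1 of its UMIs. Ifit2 was at 398 and 429.8 CPM, Ifit3 at 189.8 and 235 CPM and Cmpk2, a mitochondrial nucleotide kinase, at 98.7 and 105 CPM. A cell could thus enter largely on Rsad2: 58.8% and 64.6% had an Ifit2 UMI and 47.9% and 57.7% an Ifit3 UMI.

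To describe what else these cells expressed, they were set against barcodes that passed the same other gates with an interferon sum of 0 to 2, called interferon-low cells (1681 in the control, 2547 in the IL4 library). Of 11689 genes compared outside the rule, 121 (1.04%) were at least 2-fold higher in interferon-high cells in both libraries and 10 (0.0856%) at least 2-fold lower. The median log2 ratio of all genes was -0.07 (control) and -0.03 (IL4). Ratios are log2 of CPM plus 1. The choice by interferon genes makes these values a description of the cells.

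The direct effectors were led by the IFIT family, proteins that bind foreign RNA. All 3 of its members outside the rule were higher in both libraries. Ifit1 was at 244 and 287 CPM in interferon-high cells against 15.3 and 21.4 CPM in interferon-low cells, log2 ratios of 3.91 and 3.68. Ifit3b and Ifit1bl1 had log2 ratios between 3.64 and 3.98.

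Of 21 other antiviral effectors, 8 were at least 2-fold higher in both libraries and none was lower. Oasl1, a 2′-5′-oligoadenylate synthetase-like protein, was at 1028 CPM (control) and 1159 CPM (IL4) against 186 and 284 CPM. Oasl2, Isg20, Slfn4, Slfn5, Phf11d, Xaf1 and Rtp4 were the other 7. The widely expressed Ifitm3 differed little, at 2842 and 2469 CPM against 2301 and 2230 CPM, log2 ratios of 0.30 and 0.15.

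The ISG15 pathway, which attaches a ubiquitin-like protein to other proteins, had 4 of 5 members higher in both libraries. Isg15 itself was at 941 CPM (911 to 973) in control cells and 1259.5 CPM (1234 to 1285) in IL4 cells, against 178 and 295 CPM in interferon-low cells. The ligase Herc6, the conjugating enzyme Ube2l6 and the deconjugase Usp18, which also inhibits the interferon receptor, were the other 3. Uba7, the activating enzyme, had log2 ratios of 0.73 and 0.70.

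Guanylate-binding proteins and immunity-related GTPases, which attack vacuoles of intracellular microbes and respond to interferon gamma as well as to type I interferon, were also high. In both libraries 11 of 15 were at least 2-fold higher. Iigp1 was at 96.4 and 47.2 CPM against 14.5 and 5.74 CPM. Gbp5 was at 138 and 135 CPM against 32.9 and 34.9 CPM. Tgtp2 and Gbp6 had log2 ratios between 1.92 and 2.21.

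Among 13 nucleic acid sensors compared, 3 were at least 2-fold higher in both libraries, namely Ddx58 (RIG-I), Ifih1 (MDA5) and Ifi205. Ifih1 was at 793 and 662 CPM against 113 and 149 CPM. Other genes among the 20 with the highest ratios were Ifi208, with log2 ratios of 2.45 and 2.92, the zinc finger factor Plagl1, with 2.39 and 2.27, and Trim30c, AW011738 and Ifi206, which lay between 1.73 and 2.05. Of 12 interferon transcription factors 3 were higher, namely Irf7, Stat2 and Batf2. Irf7, the factor that amplifies interferon production, was at 271 and 368 CPM against 82.5 and 144 CPM. Irf3, which is activated by phosphorylation, had log2 ratios of -0.03 and -0.13. The receptors and kinases of the pathway (Ifnar1, Ifnar2, Ifngr1, Ifngr2, Jak1, Jak2 and Tyk2) lay between -0.42 and 0.34, with 0 of 7 past 2-fold in both libraries. Interferon-inducible inhibitors were higher for 2 of 7, Usp18 and Parp14, and Socs1 had ratios of 1.21 and 0.84.

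Of 7 chemokines that act on lymphocytes, 4 were at least 2-fold higher in both libraries: Cxcl9, Cxcl10, Ccl4 and Ccl5. Cxcl9, which the rule did not use, was at 356 CPM (338 to 376) in control and 165 CPM (155 to 174) in IL4 interferon-high cells. In interferon-low cells it was at 88.6 and 40.9 CPM, which gave log2 ratios of 1.997 and 1.98. Cxcl10 was at 1903 CPM (1859 to 1948) and 1963 CPM (1931 to 1995) against 439 and 647 CPM. Ccl5 was at 325 and 742 CPM against 68.9 and 198 CPM, and T and NK barcodes held more of it, 2390 and 2837 CPM, and their part in the Ccl5 of interferon-high cells was not tested. Cxcl16 and Ccl3 lay below 2-fold, and so did the Ccr4 ligand Ccl22.

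Cxcl9 and Cxcl10 differed in how many cells held them. Cxcl10 had a UMI in 85.1% of control and 92.6% of IL4 interferon-high cells, and Cxcl9 in 86 of 328 (26.2%) and 121 of 732 (16.5%). After each cell was thinned to 2500 UMIs, which left out 8 IL4 cells, Cxcl9 was found in 17.4% (13.4 to 21.9) of control and 9.53% (7.49 to 11.9) of IL4 cells. In T and NK barcodes, which should lack it, thinned shares were 4.01% and 5.13%, with median depths of 8922 and 9857 UMIs. The tenth of interferon-high cells with most Cxcl9 held 86.7% (control) and 96.2% (IL4) of its UMIs. Thinned Cxcl10 shares were 76.2% and 79.6%, with 43.8% and 50.6% in T and NK barcodes, and the part of RNA from outside the cell in these shares was not tested.

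Cytokines that support T and NK cells were higher for 4 of 9, namely Il15, its presenting receptor Il15ra, the death ligand Tnfsf10 (TRAIL) and the interleukin 18 inhibitor Il18bp. Il15 was at 55.4 and 64.7 CPM against 23.04 and 23.6 CPM. Il27 was at 20.2 CPM in both libraries, against 8.04 and 9.73 CPM. Il12b had 1 UMI in control and 37 in IL4 cells, 28 of them in 1 barcode. Of checkpoint ligands and suppressive enzymes, 0 of 10 were higher and 1, Arg1, was lower. Cd274, which encodes PD-L1, was at 367 and 394 CPM against 191 and 268 CPM, log2 ratios of 0.94 and 0.56. Nos2 was all but absent, with 3 UMIs in the control and 5 in the IL4 interferon-high cells.

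Antigen presentation stood closer to the other cells. Of 16 genes of class I presentation, 0 passed 2-fold in both libraries, with medians of 0.41 and 0.39 beside the all-gene medians of -0.07 and -0.03. H2-K1 was at 1117 and 1222 CPM against 871 and 953 CPM, and B2m at 2051 and 2103 CPM against 1557 and 1482 CPM. The transporter Tap1 had ratios of 0.79 and 0.61. The 5 immunoproteasome genes lay between 0.26 and 0.83, and the 12 class II genes had medians of 0.43 and 0.33 with 0 past 2-fold in both libraries.

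**Figure D2:**
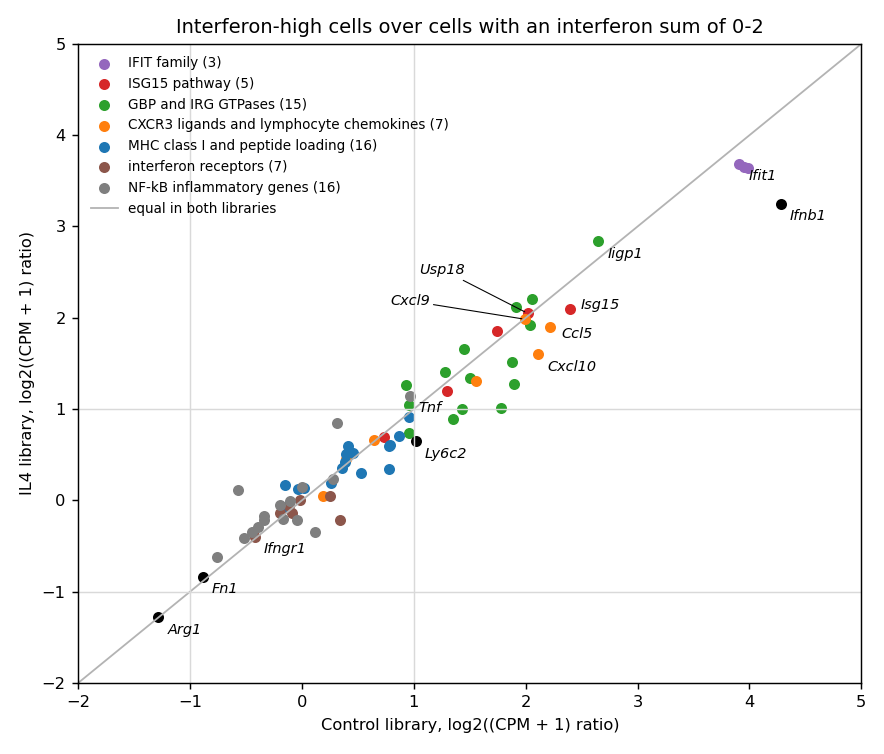
Each point is a gene, with the log2 ratio of CPM plus 1 in interferon-high over interferon-low cells in the control (x axis) and IL4 (y axis) library; colours are gene lists with the number of genes, black points are single genes, the grey lines mark 2-fold and the diagonal equal ratios. IFIT genes, GTPases, ISG15 genes and Cxcl9, Cxcl10 and Ccl5 lie beyond 2-fold in both libraries for most members, and the interferon receptors lie within 2-fold, as do the NF-kB genes except Tnf in the IL4 library.

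The 10 genes named for the lowest ratios over interferon-low cells did not all pass 2-fold. Arg1, the arginase of alternatively activated macrophages, was at 50.8 and 42.1 CPM against 125 and 104 CPM, log2 ratios of -1.28 in both libraries. Fn1, which encodes fibronectin, was at 398 and 323 CPM against 737 and 578 CPM. Gsr, the glutathione reductase, had ratios of -1.30 and -1.15, and Trem1, an activating receptor of monocytes and neutrophils, -1.12 and -0.95. Itgal, Trem3, Mgst1, Slc39a14 and Zfyve9 had ratios between -0.74 and -1.02. S100a9, a gene of neutrophils and early monocytes, had -0.85 and -1.29, but in Xist-only cells its ratio was 0.21 in the library where it was weaker. The neutrophil marker list was lower in interferon-high cells, at 167 and 120.2 CPM against 269 and 210.3 CPM. It holds S100a9 itself, its highest gene in interferon-low cells at 86.7 and 75.4 CPM. The part of neutrophil RNA in the S100a9 value was not tested. The NF-kB list was level with the rest, with 0 of 16 past 2-fold in both libraries and medians of -0.18 and -0.19. Within it Tnf had ratios of 0.96 and 1.14 and Il1b of -0.45 and -0.35.

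Ifnb1, the gene of interferon beta, had the highest ratio of the named genes over interferon-low cells in the control library and came after the 3 IFIT genes in the IL4 library. It was at 115 CPM (105 to 127) in control and 118 CPM (111 to 126) in IL4 interferon-high cells, against 4.98 CPM (3.90 to 6.26) and 11.6 CPM (10.1 to 13.2) in interferon-low cells. The log2 ratios were 4.28 and 3.24. Cells with an interferon sum of 3 to 9 lay between, at 22.6 and 40.5 CPM. Macrophages gated on Folr2, Cbr2 and Ccl8 had 14.5 and 24.1 CPM, those gated on Lpl, Ccl24 and Mmp12 7.96 and 16.5 CPM, and those with the hypoxia genes 6.23 and 11.2 CPM. In T and NK barcodes it was at 5.55 and 16.5 CPM. Barcodes with a high interferon sum that failed another gate had 82.7 and 101 CPM.

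Interferon-high cells held 18.6% of all Ifnb1 UMIs of the control library and 17.6% of those of the IL4 library, while they held 3.94% and 5.63% of all UMIs. Another 51.4% and 51.2% lay in barcodes with a high interferon sum that failed another gate. Few cells carried the transcript. At least 1 UMI was found in 64 of 328 control cells (19.5%) and 196 of 732 IL4 cells (26.8%), and at least 5 in 25 and 57. At 2500 UMIs per cell the shares were 12.2% (8.86 to 16.2) and 13.7% (11.3 to 16.4), against 1.09% and 1.88% in interferon-low cells and 0.669% and 1.77% in T and NK barcodes. The tenth of cells with most Ifnb1 held 89.1% and 78.0% of its UMIs, and in the control library 5 barcodes held 180 of 433. Interferon alpha genes were close to 0 in these cells, with 1 Ifna4 UMI in control and 6 in IL4 cells. Ifng had 9 UMIs in control and 126 in IL4 cells, of which 5 barcodes held 69.

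**Figure D3:**
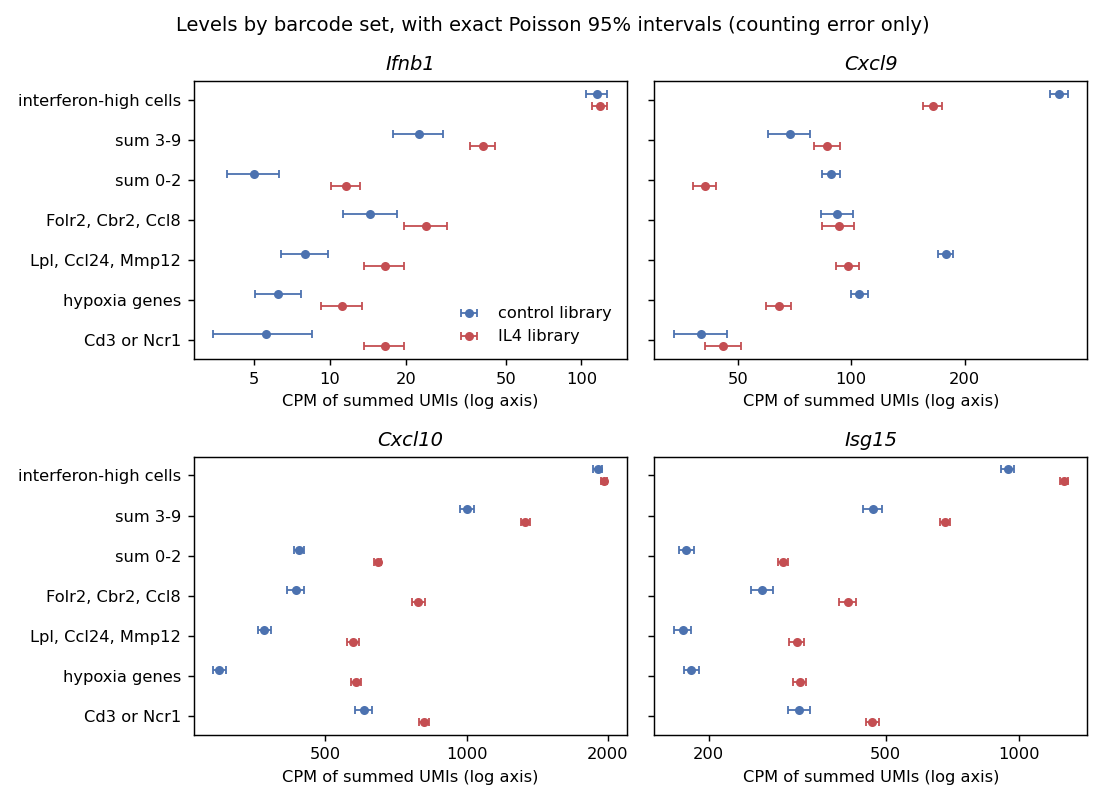
CPM of summed UMIs (x axis, logarithmic) of Ifnb1, Cxcl9, Cxcl10 and Isg15 in 7 sets of barcodes (y axis) of the control (blue) and IL4 (red) libraries, with exact Poisson 95% intervals. All 4 genes were highest in interferon-high cells among these 7 sets in both libraries, and the sets with sums of 3 to 9 came next for Ifnb1, Cxcl10 and Isg15 but not for Cxcl9. Barcodes with a high interferon sum that failed another gate are not drawn, and their IL4 Cxcl9 level of 176 CPM (171 to 181) was above the 165 CPM of interferon-high cells.

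Cells with and without an Ifnb1 UMI differed in some genes in both libraries. Tnf was at 561 CPM in the 64 control cells with Ifnb1 and 308 CPM in the 264 without, and at 974 and 548 CPM in the 196 and 536 IL4 cells. Ccl5 was at 593 against 250.5 CPM and at 1066 against 605 CPM. Ifit2 was higher in cells with Ifnb1, at 599.9 against 342 CPM and at 495 against 403 CPM. Ifit3 was lower in them, at 142 against 203 CPM and at 194 against 253 CPM. Rsad2 was higher in them, at 2175 against 1910 CPM and at 2054 against 1624 CPM. All 3 genes count in the sum that chose the cells. Their shifts are thus not free of the choice, and its part in them was not tested. Irf7, which the rule did not use, was lower in cells with Ifnb1, at 227 against 283 CPM and at 300.2 against 396 CPM. Cxcl9 went opposite ways, at 283 against 377 CPM in the control and 298 against 109 CPM in the IL4 library. The cells with Ifnb1 were deeper, with medians of 11769.5 against 10333.5 UMIs and 10394 against 8940 UMIs, and the part of depth in these differences was not tested.

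The interferon-high cells ran from monocyte-like to macrophage-like transcripts. For each cell the macrophage share is the part of its UMIs in the 12 markers that came from the 6 macrophage markers. It was under 25% in 35.4% of control and 34.4% of IL4 interferon-high cells, between 25% and 75% in 47.9% and 45.8%, and over 75% in 16.8% and 19.8%. The median share was 40% in both libraries, and 68 and 159 cells lay within 5 points of a limit. Interferon-low cells had median shares of 34.8% and 33.3%, with 38.4% and 42.01% under 25% and 17.5% and 17.4% over 75%. In the IL4 library the interval of the part under 25% was 31.0% to 38.0% for interferon-high and 40.1% to 44.0% for interferon-low cells, which did not overlap. Every one of these cells had a high interferon sum by the rule, so its presence in every range follows from the choice. The gates on Folr2, Cbr2 and Ccl8 and on Lpl, Ccl24 and Mmp12 also left macrophages out beforehand.

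Some genes varied along the range. Ifnb1 was at 62.0 CPM in control cells under 25% and 268 CPM in those over 75%, and at 87.8 and 189 CPM in IL4 cells. Cxcl9 was at 371, 253 and 665 CPM from the lowest to the highest range in the control library and at 87.8, 173 and 282 CPM in IL4 cells, so the control exceeded IL4 in all 3 ranges. Ccl5 was at 217, 355 and 491 CPM against 622, 780.2 and 864 CPM, and IL4 exceeded the control in all 3. Il10, the anti-inflammatory cytokine, was at 18.96, 55.1 and 119.6 CPM against 66.3, 140.4 and 212 CPM.

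**Figure D4:**
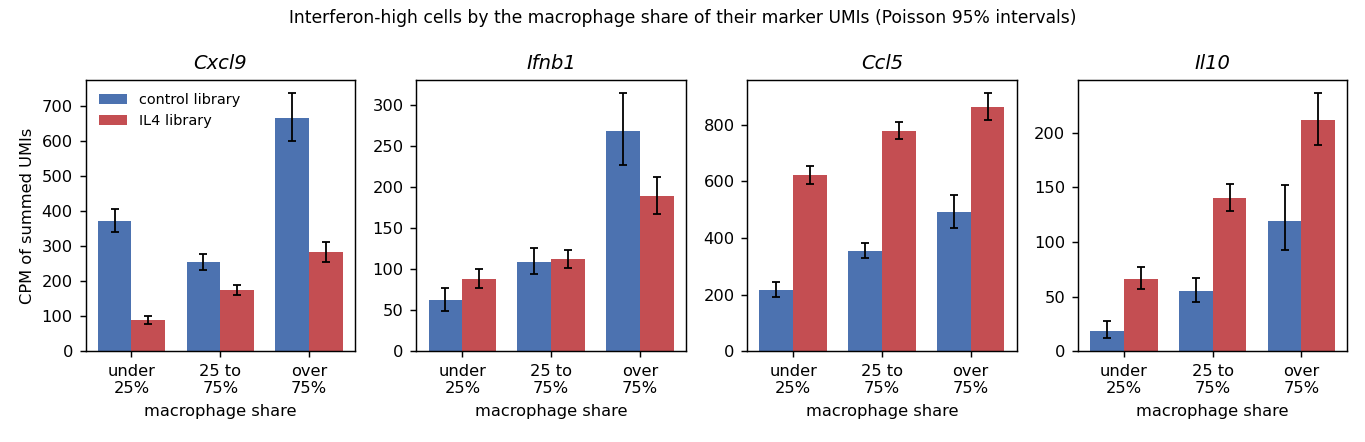
CPM of summed UMIs (y axis, from 0) of Cxcl9, Ifnb1, Ccl5 and Il10 in interferon-high cells divided by their macrophage share (x axis), for the control (blue) and IL4 (red) libraries, with exact Poisson 95% intervals. Cxcl9 was lower and Ccl5 and Il10 higher in the IL4 library in each of the 3 ranges, and Ifnb1 was highest over 75% in both libraries.

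Interferon-high cells were divided into 4 equal groups by their interferon sum per 10000 UMIs (82 control and 183 IL4 cells each). From the lowest to the highest group Isg15 went from 583 to 1591 CPM for the control and from 791 to 2334 CPM for IL4. Cxcl10 went from 1211 to 3383 CPM and from 1369.6 to 3247 CPM. Cd274 was at 269 and 540.3 CPM at the ends for the control and at 319 and 529 CPM for IL4. Cxcl9 was lowest in the top group of the control, at 132 CPM against 319, 374.9 and 583 CPM in the other 3. In the IL4 library its 4 groups were at 108, 134, 267 and 192 CPM. The groups were cut on the genes that chose the cells, so these values are a description. With at least 10 UMIs required, a low sum per 10000 UMIs can occur only in deep barcodes. Depth thus fell with the groups by the rule, from medians of 13540 to 8350 UMIs (control) and of 12946 to 7246 UMIs (IL4). Its part in the other genes was not tested.

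The second question of the design is how these cells differed between mice that received IL-4-treated and untreated macrophages. In interferon-high cells 651 of 10945 genes (5.95%) were at least 1.5-fold higher in the IL4 library and 555 (5.07%) at least 1.5-fold lower. In interferon-low cells, which held 14667962 and 19329041 UMIs against 3757061 and 7480493 here, 1.78% of 12798 genes were higher and 3.19% lower. Within Xist-only interferon-high cells 8.07% were higher and 7.69% lower, and within the few Y-only cells 8.42% and 15.1%. The median ratio over all genes was -0.02 in interferon-high cells.

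Cells of both libraries were chosen for the same least amount of 4 type I genes, so the level of the type I programme within them is partly set by the choice. Of 24 type I effectors outside the rule, 1 was at least 1.5-fold higher in the IL4 library (Slfn4, at 191 and 288 CPM) and none was lower. The list median was 0.12. It stood at 0.16 with Xist-only and at -0.15 with Y-only cells, and at 0.25 for interferon-low cells. Ifnb1 had an IL4 to control ratio of 1.03 (0.914 to 1.15) in all interferon-high cells. The ratio was 2.61 (2.01 to 3.43) in Xist-only and 0.754 (0.597 to 0.946) in Y-only cells. In interferon-low cells it was 2.33. The intervals do not take into account that 5 barcodes held 180 of 433 Ifnb1 UMIs of control interferon-high cells. Cxcl10 had a ratio of 1.03 (1.003 to 1.06), with 1.06 in Xist-only and 0.929 in Y-only cells. Isg15 was 1.34-fold (1.29 to 1.39) higher in the IL4 library, 1.23-fold within Xist-only and 1.26-fold within Y-only cells. Irf7 was 1.36-fold (1.26 to 1.46) higher, with 1.299 and 1.58 within the sexes. All other kept barcodes were higher in the IL4 library in Ifit2, at 76.1 and 108 CPM. Isg15 was at 314 and 538 CPM there, and Ifnb1 at 20.7 and 33.1 CPM. The choice does not bound this set from below, but it took out the cells with a high sum that passed every gate. Of its Ifit2 UMIs, 5439 of 6974 (control) and 10045 of 13574 (IL4) lay in barcodes with a high sum that failed another gate. Ifit2 is also a gene of the rule, and these values are pooled over sex. They thus do not give the level of the programme free of the choice.

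The GTPases were lower in the IL4 library as a group in the pooled cells, but not within both sexes. Of 15 compared, 4 were lower (Gbp2, Gbp4, Gbp8 and Iigp1) and none was higher, with a list median of -0.30. Gbp2 was at 294 and 143 CPM and Iigp1 at 96.4 and 47.2 CPM. Of 362 control Iigp1 UMIs 132 lay in 5 barcodes. In Xist-only cells the median was -0.01 with 1 of 15 lower, and in Y-only cells -1.06 with 12 of 15 lower. Iigp1 was at 56.5 and 50.1 CPM in Xist-only cells, and at 155 and 42.05 CPM in Y-only cells. The highest of these 4 values was that of Y-only control cells. Interferon-low cells had a median of -0.28 with 1 of 15 lower.

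Cxcl9 was lower in the IL4 library by a ratio of 0.462 (0.427 to 0.499), at 1339 UMIs in 328 control cells and 1231 UMIs in 732 IL4 cells. In Xist-only cells the ratio was 0.466 (0.416 to 0.522), at 327 and 152 CPM, and in Y-only cells 0.541 (0.453 to 0.642), at 442 and 239 CPM. The log2 ratio was -1.11 here and -1.10 in interferon-low cells. Other sets differed, since cells with a sum of 3 to 9 were at 68.6 CPM (60.2 to 77.8) in control and 86.0 CPM (79.4 to 93.1) in IL4 mice, and macrophages gated on Folr2, Cbr2 and Ccl8 were at 91.7 and 92.5 CPM. Ccl5 went the other way and was 2.28-fold (2.14 to 2.43) higher, 1.88-fold in Xist-only and 2.21-fold in Y-only cells. In interferon-low cells its log2 ratio was 1.51, beside 1.19 here. NK markers other than Klrk1 moved with Ccl5, from 10.4 to 42.5 CPM, and their part in it was not tested.

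Inflammatory genes under NF-kB were higher in the IL4 library. Of 16 compared, 7 passed 1.5-fold upward and none downward, with a list median of 0.54. The median stood at 0.34 with Xist-only, 0.85 with Y-only and 0.41 with interferon-low cells. Tnf was at 363 and 673 CPM, 1.86-fold (1.75 to 1.97), and 1.86-fold within Xist-only and 2.096-fold within Y-only cells. Il1a was at 14.1 and 43.9 CPM and Il1b at 1691 and 2340.5 CPM, and the chemokine Cxcl2 had a log2 ratio of 0.70. Il1rn, which encodes the interleukin 1 receptor antagonist, was at 98.2 and 235 CPM, with ratios of 2.04 and 2.21 within the sexes. Il10 was at 51.4 and 128 CPM, 2.50-fold (2.14 to 2.93), with ratios of 2.58 in Xist-only and 2.30 in Y-only cells. The Il10 difference was as large in interferon-low cells, at 42.7 and 118 CPM.

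Other genes named for their high ratio were Areg, a growth factor of the epidermal family, at 26.9 and 93.3 CPM, the lipoprotein receptor Olr1 at 30.3 and 79.3 CPM, the microRNA host Mir155hg at 50.3 and 107 CPM, Ms4a7 at 59.1 and 129 CPM, Gstt2 at 6.92 and 20.5 CPM and Top2a at 9.32 and 24.6 CPM. Areg had ratios of 3.33 in Xist-only and 7.91 in Y-only cells, the latter from 19 and 70 UMIs, and 53 of its 101 control UMIs lay in 5 barcodes. With at least 3 Csf1r UMIs required its log2 ratio was 0.66, beside 1.76 in all interferon-high cells. In Y-only cells Ms4a7 had the opposite direction, with a log2 ratio of -0.43. Cell cycle genes were higher for 3 of 12, Top2a, Birc5 and Stmn1, with a list median of 0.39. Their UMIs were few, and with at least 3 Csf1r UMIs required Top2a had a ratio of -0.15.

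Among genes named for a low ratio, 3 encode heat shock proteins. Hspa1b was at 1043 and 489.8 CPM, Hsph1 at 284 and 96.0 CPM and Hspb1 at 89.4 and 19.1 CPM. In Xist-only cells their ratios were 0.415, 0.351 and 0.311. In Y-only cells Hspa1b and Hsph1 had 0.701 and 0.534, and Hspb1 had 196 UMIs in control and 0 in IL4 cells. Of 336 control Hspb1 UMIs 195 lay in 5 barcodes, and 45 of 328 cells had any. All 3 were lower in interferon-low cells too, with log2 ratios of -1.07, -1.38 and -2.20. Mgl2, a lectin of alternatively activated macrophages and dendritic cells, was at 113 and 53.2 CPM, with 198 of 426 control UMIs in 5 barcodes and ratios of 0.515 in Xist-only and 0.876 in Y-only cells. Serpina3g, a protease inhibitor, was at 58.6 and 24.2 CPM, with 80 of 220 control UMIs in 5 barcodes and ratios of 0.434 and 0.409. Immp2l was at 58.8 and 23.9 CPM, with 0.702 and 0.377, and Kptn at 33.3 and 14.97 CPM, with 0.405 and 0.812. The lowest ratios of all, of Hpgd and Tnfsf8, came from single barcodes. Of 90 Hpgd UMIs in the control library 72 lay in 1 cell, and of 76 Tnfsf8 UMIs 51 lay in 1 cell.

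Class II presentation, a subject of the series, was lower in the IL4 library for 3 of 12 genes, namely Ciita, H2-DMb2 and H2-Oa, with none higher and a median of -0.28. Ciita, the master regulator of class II genes, was at 139.7 and 87.8 CPM, a ratio of 0.629 (0.560 to 0.706). Cd74, the invariant chain, was at 7157 and 5943 CPM, a ratio of 0.830 (0.818 to 0.843). Within Xist-only cells the ratios were 0.743 for Ciita and 0.937 for Cd74, the list median was -0.09 and 0 of 12 were past 1.5-fold. Within Y-only cells the median was -0.50, and it was -0.22 in interferon-low cells. Class I presentation had a median of -0.02, with 0.09 in Xist-only and -0.20 in Y-only cells, and with H2-Q7 higher and Tapbpl lower of 16.

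Genes of the response to IL-4 were divided, with 3 of 16 higher (Ccl17, Egr2 and Retnla), 1 lower (Mgl2) and a median of 0.03. The median stood at 0.18 with Xist-only and 0.08 with Y-only cells. In Xist-only cells 4 were higher (Ccl22, Ccl17, Irf4 and Egr2) and 3 lower (Pdcd1lg2, Clec10a and Mgl2). In Y-only cells 3 were higher (Ccl17, Egr2 and Irf4) and 1 lower (Cd209a). Retnla passed 1.5-fold upward in neither. Ccl17 had 25 UMIs in control and 120 in IL4 cells. In interferon-low cells Ccl17 and Retnla went the other way. There 1 of 16 was higher (Ccl22) and 4 were lower (Ccl17, Mgl2, Cd209a and Retnla), with a median of -0.07. Arg1 was at 50.8 and 42.1 CPM, with ratios of 1.39 in Xist-only and 0.722 in Y-only cells, and the receptor chain Il4ra was at 119.5 and 124 CPM. Smyd5, a methyltransferase named in the title of the series, had 28 UMIs in control and 36 in IL4 cells, at 7.45 and 4.81 CPM. The interval of its ratio, 0.383 to 1.10, took in 1, so a difference was not detectable at this depth. Smyd3 had the only ratio past 1.5-fold among the 10 genes of this list, with a log2 ratio of -0.65. Hypoxia and glycolysis genes had 0 of 13 past 1.5-fold.

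**Figure D5:**
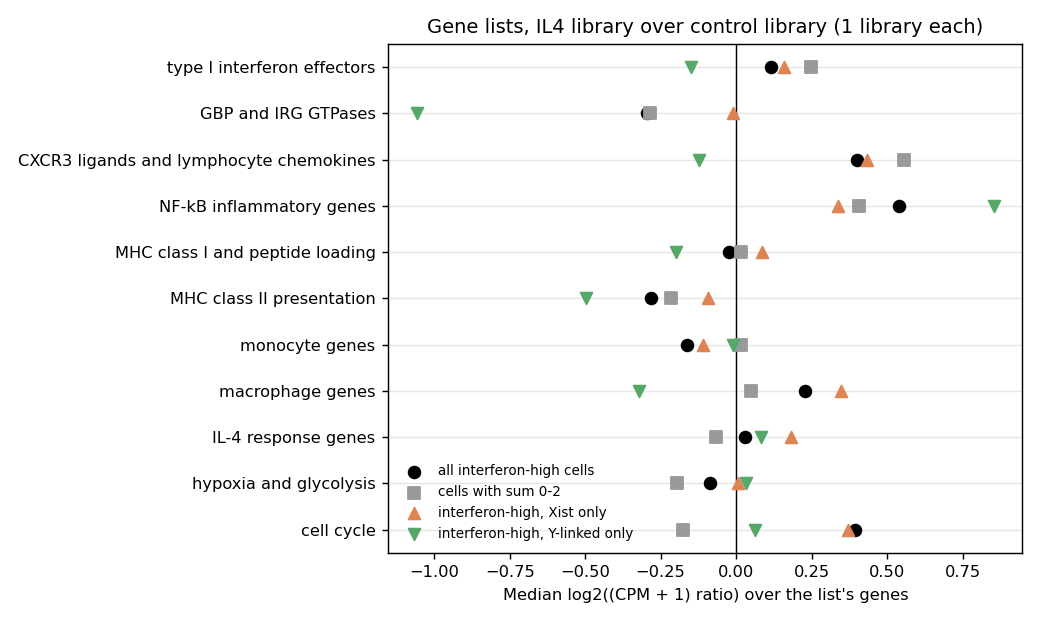
Median log2 ratio of CPM plus 1, IL4 over control library (x axis), for gene lists (y axis) in all interferon-high cells (circles), interferon-low cells (squares), and interferon-high cells with Xist only (upward triangles) or Y-linked UMIs only (downward triangles). NF-kB genes lie above 0 in all 4, while the GTPases lie at -0.01 in Xist-only and -1.06 in Y-only cells.

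Monocyte genes differed little between the libraries in the pooled cells, while macrophage genes differed in direction between the sexes. Of 12 monocyte genes 0 were past 1.5-fold, with Ly6c2 at 316 and 386 CPM. In Y-only cells Hp and Vcan were higher and Fn1 was lower. Of 14 macrophage genes 3 were higher (Ms4a7, Cd63 and Gpnmb), with a median of 0.23. The median stood at 0.35 with Xist-only cells, where Gpnmb, Ms4a7 and C1qc were higher. It stood at -0.32 with Y-only cells, where Gpnmb was higher and C1qa, Apoe and Selenop were lower. C1qa was at 454 and 559.7 CPM, with ratios of 1.35 in Xist-only and 0.643 in Y-only cells.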

How the data were processed

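Single-cell RNA libraries (10x Genomics) of CD45-positive tumour cells were analysed from the deposited matrices of raw UMI counts, whole numbers for 32285 genes. The authors made these counts with Cell Ranger 7.2.0 on mm10, per the submitters' processing notes. Which annotation they used is not given in the sources here. Promoters came from RefSeq (GRCm38.p6) and gene positions from the GENCODE annotation of GRCm38.

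The filter on barcodes asked for 500 UMIs or more, 250 genes or more and a mitochondrial share of 10% or less, and the gates given in the report were applied to raw counts. No doublet caller was run. UMIs were summed per library and set and scaled to CPM, with a pseudocount of 1 CPM in log2 ratios. Fold ratios were taken without it. A gene was compared with at least 20 UMIs over the groups, and the 22 rule genes were left out. Intervals are exact (Poisson, conditional binomial, Clopper-Pearson) or Newcombe for differences of shares, at 95%. Each group is 1 library, so no test was made. A gene counted as different at 2-fold in both libraries between cell sets and at 1.5-fold between libraries. The Y-linked genes were Ddx3y, Eif2s3y, Kdm5d and Uty.

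Named genes, among those with at least 50 UMIs and 20 CPM, were the 20 highest and 10 lowest over interferon-low cells by the weaker library and the 10 highest and 10 lowest between libraries, with up to 4 per list and fixed genes. Mitochondrial, ribosomal, T cell receptor, immunoglobulin, haemoglobin, sex-linked and predicted genes were left out. Genes outside this rule (Ifitm3 and list members named for passing a fold) were chosen after their values were seen. Some list members are not reported here by name. The cells and the 23 gene lists were chosen with earlier results of these data known. Calculations were tested on simulated data and used Python 3.11.15, numpy 2.4.6, scipy 1.17.1, pandas 2.3.3 and matplotlib 3.10.9. The 16 alternatives concerned filters, gates, depth, sex, scaling, pseudocount and the UMI minimum.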

Additional observations from a re-analysis of the deposited data

Results flagged for a closer look

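In 6 genes the IL4 library differed from the control in opposite directions in Xist-only and Y-only interferon-high cells, with both counting intervals away from no difference and the log2 ratios at least 1 apart. The difference between the sexes was not tested, and the Y-only IL4 cells number 68. These intervals treat UMIs as independent, while 180 of the 433 Ifnb1 UMIs in control interferon-high cells lay in 5 barcodes. Such clumping can widen the true error beyond the intervals, and its part was not tested. Ifnb1 had a log2 ratio of 1.36 in Xist-only cells (43.0 CPM in the control, 112 CPM in the IL4 library) and -0.40 in Y-only cells (199.9 and 151 CPM). The complement genes C1qa and C1qc had log2 ratios of 0.43 and 0.62 in Xist-only and -0.64 and -0.55 in Y-only cells. The monocyte chemokine Ccl12 had 0.75 and -0.42. Stmn1, a cell cycle gene with few UMIs, had 1.21 and -1.37, and the receptor Trem3 had -0.79 and 0.93.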

How the results depend on the processing

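The 7 main results (the share of interferon-high cells in each library and its difference, the counts of genes of the cell type and between libraries, and the type I list median) were recomputed, the shares under the 10 alternatives that change which cells are chosen and the others under 16, and 70 of the 94 values stayed near the main one. The share of kept barcodes in the control and IL4 libraries was 5.94% and 8.74% with an interferon sum of at least 5, 2.10% and 2.50% with at least 20, 1.43% and 1.92% with at least 3 Csf1r UMIs, and 9.40% and 12.2% with the interferon and Csf1r gates alone. It was 5.13% among Y-only control barcodes and 6.02% in the IL4 library after thinning to 4000 UMIs. Thinning left out barcodes below that depth and used a sum of at least 5. Interferon-low cells then had no UMI of the sum. The difference in points was 2.80 with a sum of at least 5 and also with 2 gates alone, 0.396 with at least 20, 0.486 with at least 3 Csf1r UMIs and 0.416 in Y-only barcodes, above 0 in each, though the intervals with at least 20 and in Y-only barcodes took in 0. The 651 genes higher in the IL4 library became 343 with 2 gates alone, 228 with a pseudocount of 5 CPM, 1161 without a UMI minimum and 215 with at least 100 UMIs. The 555 lower genes became 172, 1103 and 193 under the last 3 and 1130 in Y-only cells. Fewer or more genes are compared when the UMI minimum changes, and for the other settings the cause was not tested. The type I list median was -0.15 in Y-only cells.

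Of 1422 values of the 89 single-gene and list results, 50 in 29 results had the opposite sign to the main value, and most of these main values were under the 1.5-fold limit. Of results past it, 5 values changed direction. Ms4a7 had -0.43 in Y-only cells and Top2a -0.15 with at least 3 Csf1r UMIs. S100a9 in the weaker library had 0.40 after thinning with its changed limits, 0.75 with at least 3 Csf1r UMIs and 0.21 in Xist-only cells. Another 267 values moved beyond the interval of the main value, some of them to the other sign where the main value was under the limit. No paired analysis was possible because each group is 1 library. With 328 and 732 cells, genes at a few CPM, such as Smyd5, have intervals too wide to show a 1.5-fold difference, and Y-only values rest on 68 IL4 cells.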

Other observations

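Interferon alpha UMIs of the IL4 library lay mostly in barcodes with a high interferon sum that failed another gate, as did 51.2% of its Ifnb1 UMIs. Of 41 Ifna5 UMIs in the IL4 library 9 lay in interferon-high cells and 75.6% in barcodes with a high interferon sum that failed another gate. Of 164 Ifna2 UMIs there, 6 lay in interferon-high cells and 70.1% in barcodes with a high sum that failed another gate. The control library held 3 and 45 UMIs of these genes.

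Interferon-high cells held 10.4% and 9.35% of all Cxcl9 UMIs of the control and IL4 libraries, and 12.8% and 11.7% of all Cxcl10 UMIs. Of Arg1 UMIs they held 0.757% and 1.69%, below the 3.94% and 5.63% of all UMIs that they held.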
